A study of Drosophila melanogaster with 3 samples.

Results

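The regions described here are the peaks called for CG17385 that lie in introns of long genes. A region was taken from the list of reproducible peaks, kept by the authors after an irreproducible discovery rate (IDR) filter, when its summit was more than 500 bp from every protein-coding start site, in no protein-coding exon, and inside a protein-coding gene of 50 kb or longer. There were 806 such peaks among the 7588 IDR peaks (10.6%, Wilson 95% interval 9.95 to 11.3%), and they are called long-intron peaks below. Each summit counts as 1 peak, and 1 region can hold several. In Hr4, for example, the same region gave summits at chrX:1947769 and chrX:1948051. The closest IDR summit to a long-intron summit was 199 bp away, so neighbouring peaks are not independent. They fell in 195 of the 307 genes of that length (63.5%). Where several genes held a summit, which concerned 39 peaks, the longest was taken as the host gene.

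The data are chromatin immunoprecipitation sequencing (ChIP-seq) peak lists from whole Drosophila melanogaster embryos, 0 to 24 h old and of both sexes, of a transgenic line with a stably expressed CG17385 fused to GFP at its C-terminus. There were 3 biological replicates in 1 group, a list of 30000 peaks for each of them, a list of 30000 peaks from the pooled replicates, and the IDR list. Whole embryos mix all tissues and a day of development, so a peak may come from few or many of the cells. The labels conflict: a free-text line of each sample mentions an input control, but its assay and antibody entries describe a ChIP, and all values below assume ChIP. The number of reads is unknown from these lists.

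CG17385 encodes a zinc finger protein. Long introns of Drosophila genes are known to hold enhancers and alternative start sites, and long genes are prominent among developmental regulators, cell adhesion molecules and ion channels. The CG17385 gene itself is 2278 bp long, so it could hold none of these peaks. No IDR summit lay inside it, and the nearest was 18398 bp away.

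The sequences of 8 of the strongest long-intron peaks, all found in every replicate, are printed first, to show what the sequence under a strong summit looks like. Each run is the plus strand of the Release 6 genome (dm6 coordinates, RefSeq copy), with 50 bp on each side of the summit. Capitals mark the words of 8 bases that were more frequent at these summits than in their flanks, as described further on.
ush, chr2L:481014-481114: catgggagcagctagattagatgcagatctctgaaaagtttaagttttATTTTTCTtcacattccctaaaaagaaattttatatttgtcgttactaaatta
Tlk, chrX:3742175-3742275: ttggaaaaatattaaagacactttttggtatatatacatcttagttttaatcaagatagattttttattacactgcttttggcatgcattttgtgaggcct
CG1677, chrX:7300925-7301025: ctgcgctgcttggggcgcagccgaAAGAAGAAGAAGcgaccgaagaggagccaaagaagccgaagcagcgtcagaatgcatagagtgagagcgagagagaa
Smr, chrX:12734976-12735076: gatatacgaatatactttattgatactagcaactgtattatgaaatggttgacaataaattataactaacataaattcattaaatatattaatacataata
CG33158, chr3L:16480512-16480612: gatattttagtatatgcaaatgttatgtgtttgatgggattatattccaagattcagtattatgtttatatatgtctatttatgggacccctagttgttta
CG1677, chrX:7324967-7325067: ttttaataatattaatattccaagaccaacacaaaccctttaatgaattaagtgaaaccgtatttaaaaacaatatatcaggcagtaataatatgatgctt
beat-Ib, chr2L:15911230-15911330: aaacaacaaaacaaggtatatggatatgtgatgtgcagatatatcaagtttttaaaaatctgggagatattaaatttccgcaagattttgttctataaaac
Hr4, chrX:1947719-1947819: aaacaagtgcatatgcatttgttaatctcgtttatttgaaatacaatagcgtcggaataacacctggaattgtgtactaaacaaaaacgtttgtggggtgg

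All but one of these 8 were poor in G and C. The GC content of the run was 18.8% at Smr, between 24.8% and 35.6% at the other 6 AT-rich runs, and 56.4% at the first of the CG1677 summits. That summit lay beside a run of AAG triplets, and the strongest long-intron peak, at ush, held 1 marked word 2 bp from its summit.

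The next 5 runs are strong long-intron peaks, found in every replicate, with a word of the group that shares the core CACTG (its other strand is CAGTG). They reach 100 bp on each side because these words lay away from the summit. These and the last set were picked after the word test had been seen, as illustrations.
Hr4, chrX:1963836-1964036: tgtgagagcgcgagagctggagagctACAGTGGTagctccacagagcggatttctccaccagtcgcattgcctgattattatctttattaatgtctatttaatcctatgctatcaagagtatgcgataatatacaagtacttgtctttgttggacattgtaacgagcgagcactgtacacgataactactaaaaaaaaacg
prage, chrX:1830689-1830889: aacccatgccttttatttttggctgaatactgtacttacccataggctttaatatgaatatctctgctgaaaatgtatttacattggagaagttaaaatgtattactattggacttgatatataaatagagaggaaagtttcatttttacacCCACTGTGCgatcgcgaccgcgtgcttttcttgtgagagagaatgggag
beat-Ib, chr2L:15912052-15912252: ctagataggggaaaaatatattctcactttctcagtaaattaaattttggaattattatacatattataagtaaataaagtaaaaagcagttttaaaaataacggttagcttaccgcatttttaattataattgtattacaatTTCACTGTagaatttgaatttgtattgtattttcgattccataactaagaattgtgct
Drak, chrX:11494908-11495108: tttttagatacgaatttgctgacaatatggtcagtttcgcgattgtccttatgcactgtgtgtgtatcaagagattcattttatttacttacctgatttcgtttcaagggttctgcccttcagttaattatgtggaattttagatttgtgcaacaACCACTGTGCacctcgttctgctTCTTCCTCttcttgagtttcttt
Snoo, chr2L:7925494-7925694: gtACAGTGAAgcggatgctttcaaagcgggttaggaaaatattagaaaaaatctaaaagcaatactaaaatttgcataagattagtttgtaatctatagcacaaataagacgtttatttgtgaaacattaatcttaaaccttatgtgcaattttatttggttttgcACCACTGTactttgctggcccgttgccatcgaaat

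At Hr4 the marked word lay 70 bp left of the summit and at beat-Ib 47 bp to its right. Snoo held one on each side, the outermost at -94 and 70 bp. Between and around the marked words the sequence at prage, beat-Ib and Snoo was again AT-rich.

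The last 3 runs are strong ones with A- and G-rich words and no CACTG-type word. Those at rdx and ed show the words from their other strand, as TCTTCTTC.
pum, chr3R:9220508-9220708: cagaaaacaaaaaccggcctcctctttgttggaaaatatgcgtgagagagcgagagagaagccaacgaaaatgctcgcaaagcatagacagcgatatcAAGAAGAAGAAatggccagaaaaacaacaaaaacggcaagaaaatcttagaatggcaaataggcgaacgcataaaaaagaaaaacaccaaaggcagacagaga
rdx, chr3R:14020724-14020924: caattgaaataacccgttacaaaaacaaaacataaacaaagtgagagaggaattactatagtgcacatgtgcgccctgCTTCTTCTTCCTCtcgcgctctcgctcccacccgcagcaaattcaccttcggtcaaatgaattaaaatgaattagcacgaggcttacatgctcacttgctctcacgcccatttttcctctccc
ed, chr2L:4053748-4053948: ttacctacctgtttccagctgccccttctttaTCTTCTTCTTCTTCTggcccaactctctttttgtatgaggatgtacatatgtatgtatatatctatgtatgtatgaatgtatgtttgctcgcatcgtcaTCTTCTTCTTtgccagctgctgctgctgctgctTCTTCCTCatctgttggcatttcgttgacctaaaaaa

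At pum the marked words lay 2 to 5 bp from the summit. At ed they ran from -64 to 68 bp.

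The base composition of all 806 long-intron peaks followed what these runs show. In bins of 27 bp, GC content was 33.8% at the summit, 37.8% and 38.8% at 81 bp on the left and right, and 42.2% and 42.8% at 135 bp. The 3939 other peaks of the pooled list that lay in introns of long genes had 38.7% at the summit and 40.9% and 41.5% at 135 bp. In the windows of 100 bp on each side, the long-intron peaks had 36.1% GC, against 39.9% in windows of the same width 1000 bp away. In the lists of the single replicates the difference was -3.24, -4.12 and -3.10 percentage points (mean -3.49 ± 0.551, SD, n = 3). The trough was deep in the IDR peaks and shallow in the weaker peaks of the same introns, whose summits differed by -0.819 points from their flanks. It was not particular to long introns. The difference was -3.77 points for long-intron peaks, -4.13 for intronic IDR peaks of shorter genes and -5.31 for promoter IDR peaks.

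**Figure D1:**
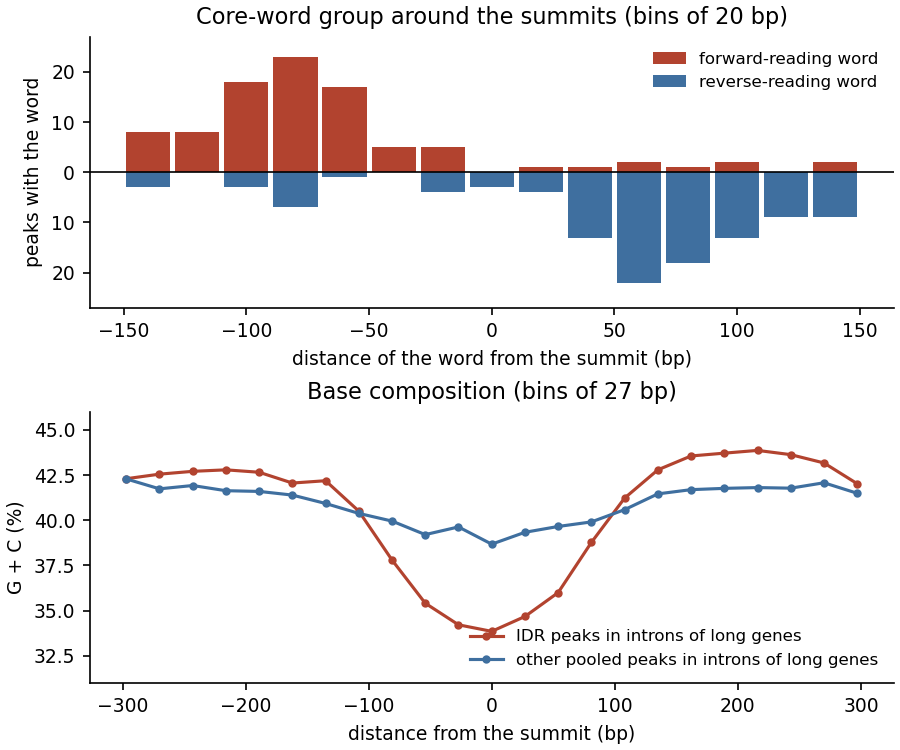
Top, number of the 806 long-intron peaks with a CACTG-type word in each bin of 20 bp around the summit. Forward-reading words are above the line and reverse-reading words below it. Each word is read as in the text, so some carry CACTG and others CAGTG. Bottom, GC content in bins of 27 bp around the summits of the long-intron peaks and of the 3939 other pooled peaks in introns of long genes. Forward-reading words lie mostly left of the summit, with 23 peaks in the highest bin, and reverse-reading words mostly right of it, with 22 in the highest bin, at the edges of the trough in GC content.

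All words of 8 bases, counted on either strand, were tested for presence within 100 bp of the summit against a window of the same width centred 1000 bp away (exact McNemar test, Benjamini-Hochberg adjusted p under 0.05 and at least a 2-fold difference). Of these words, 11 (0.0334%) passed, and 916 had an unadjusted p under 0.05. They formed 6 words that share the core CACTG and 5 that consist mainly of A and G.

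The fold took at least 3 flanks as its base, and on that scale CACAGTGG had the highest one. It was in 38 long-intron peaks at the summit and in 3 at the flank (12.7-fold, adjusted p = 8.62e-05, exact McNemar test). In the replicate lists it was in 31, 38 and 38 summit windows and 3, 4 and 7 flanks in replicates 1, 2 and 3. ACACTGAG was in 25 summit windows and in no flank, at least 8.33-fold with that floor (adjusted p = 0.000392, exact McNemar test). CACTGTGC was in 41 and 6 windows (adjusted p = 0.000971), CACTGAGA in 36 and 5 (adjusted p = 0.00322), ACAGTGAA in 29 and 2 (adjusted p = 0.00218) and ACAGTGGT in 23 and 2 (adjusted p = 0.0209), each by the exact McNemar test. Each of the 6 was at least 2-fold more frequent at summits in every replicate list. The IDR list was made from these lists and most long-intron summits recur in each, so they give no independent support. Tested on their own summits, the lists of replicates 1, 2 and 3 gave 18, 27 and 17 called words. Among those were 6, 7 and 7 of the 11 words.

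Of the A- and G-rich words, AAGAAGAA was in 100 summit windows and 23 flanks (adjusted p = 1.81e-09), AGAAGAAG in 94 and 22 (adjusted p = 1.81e-09), GAAGAAGA in 93 and 17 (5.47-fold, adjusted p = 6.29e-11, the lowest of all words) and GAGGAAGA in 38 and 9 (adjusted p = 0.0460), by the same exact test. The first 3 are the same triplet repeat in its 3 frames, so their counts overlap. AGAAAAAT, with 57 summit windows and 19 flanks (adjusted p = 0.0268, exact McNemar test), was 2.94-fold more frequent in replicate 1 but 1.30-fold and 1.77-fold in replicates 2 and 3. It is the word marked at ush.

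Taken as groups, the CACTG-type words were in 128 long-intron peaks (15.9%) at the summit and in 16 (1.99%) at the flank. Of all 121010 windows of this width that tile the same intronic sequence, 3.06% held one. The A- and G-rich words were in 191 peaks (23.7%) at the summit and 58 (7.20%) at the flank, with 7.12% of the tiles. Only 27 peaks had both kinds and 292 (36.2%) had either, so most long-intron peaks held none of the 11 words. From the strongest to the weakest 25% of the long-intron peaks, the CACTG-type share was 17.4%, 14.9%, 15.4% and 15.8%, and the A- and G-rich share 29.9%, 22.8%, 22.9% and 19.3%. These group shares describe words that were chosen on the same windows.

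The 2 kinds of word sat differently. The nearest A- or G-rich word within 100 bp of a summit was a median 24 bp away, and the nearest CACTG-type word 65 bp. The CACTG-type words, each taken as a whole, also had a reading direction, which the test, made on either strand, had not used. With CACTGTGC read from its other strand as GCACAGTG, the words within 150 bp of a long-intron summit mostly read towards it. ACACTGAG did so at 34 of 34 occurrences, CACTGAGA at 49 of 50 and ACAGTGGT at 31 of 32. CACAGTGG did so at 57 of 66, CACTGTGC at 59 of 71 and ACAGTGAA, the least directed of them, at 28 of 42. As read here, ACACTGAG and CACTGAGA carry CACTG, and the other words carry its other strand, CAGTG. The direction is therefore that of each word, and the shared core has no single direction. The direction was noticed after the word counts had been seen and is given as counts with no test. Close summits can share a word within 150 bp, so the same word may be counted more than once.

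With all 6 words, 167 long-intron peaks had one within 150 bp, and in 143 of them (85.6%) the nearest one read towards the summit, against 18 of 37 flanks. Leaving out ACAGTGAA, a choice made because it was the least directed, 138 long-intron peaks had such a word within 150 bp, and in 124 of them (89.9%) the nearest one read towards the summit. In the flanks of the same peaks it read towards the centre of the window in 18 of 31. The replicate lists gave 90 of 107, 133 of 147 and 117 of 132 summits in replicates 1, 2 and 3. These facing words lay a median 72.5 bp from the summit, with quartiles of 58 and 96 bp. Of the 167 peaks, 20 had one facing the summit on each side.

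The bases after the word were uneven too. Of 77 occurrences of CACTGAG within 150 bp of a long-intron summit, 63 (81.8%) had A at the third following base, 68 (88.3%) at the fourth and 56 (72.7%) at the fifth. The second following base was A in 28 (36.4%).

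Most of the words were also more frequent at the summits of other IDR peaks. In 3 classes of IDR peaks that had no part in choosing the words, 28 of 33 tests passed both the adjusted p, taken over the 33 (exact McNemar test), and the 2-fold difference. By the adjusted p alone 32 passed. AGAAAAAT missed the 2-fold difference in all 3 classes (1.75-fold in introns of shorter genes, 1.75-fold at promoters and 1.56-fold outside genes), and ACAGTGAA missed it at promoters (1.71-fold). ACAGTGAA outside genes missed the adjusted p, with 17 summits and 7 flanks (adjusted p = 0.0639, exact McNemar test). CACTG-type words were in 15.9% of long-intron peaks, against 11.8% of the 1937 intronic IDR peaks in shorter genes, 14.1% of the 1164 outside genes and 6.84% of the 3481 at promoters. The A- and G-rich words were in 23.7% of long-intron peaks, against 21.4%, 18.3% and 21.4% in the same classes. In the weaker pooled peaks of long-gene introns the shares were 6.68% and 12.2%. The words were chosen on the long-intron summits, which raises the long-intron shares, so these shares are given as description only. With ACAGTGAA left out as before, the nearest word faced the summit in 225 of 272 peaks of shorter-gene introns, 186 of 215 outside genes and 220 of 307 at promoters.

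A list of 31 known motifs of fly transcription factors and core promoters, of 5 to 9 letters, gave little beside this. Between long-intron summits and their flanks 0 of 31 passed (0%, exact McNemar test, adjusted over the 31), with 2 at an unadjusted p under 0.05. These were TTTATG, the posterior Hox and Caudal site, in 182 summit windows (22.6%) and 229 flanks (28.4%), and GAGAGAGA, the CLAMP-type repeat, in 37 and 21. GAGAG, the site of GAGA factor, was in 26.3% of summit windows and 22.8% of flanks (adjusted p = 0.613, exact McNemar test).

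Against the promoter peaks, 7 of 31 motifs differed (22.6%, Fisher exact test, adjusted over the 31). The 4 that were lower in long-intron peaks are motifs of core promoters and insulators. CGATA, a BEAF-32 site, was in 18.4% of long-intron peaks and 32.3% of promoter peaks (adjusted p = 2.62e-14, Fisher exact test). TATCGATA, the DRE bound by DREF, was in 0.248% and 5.17% (adjusted p = 4.78e-13), GGTCACAC, an M1BP site, in 0.248% and 3.45% (adjusted p = 3.82e-08), and CAGCTG, the E-box of Ohler motif 5, in 6.20% and 13.7% (adjusted p = 4.73e-09), by the same exact test. Higher were AAAAAAAA, in 19.6% and 11.9% (adjusted p = 1.70e-07), AACAATG, a Sox site, in 6.08% and 3.22% (adjusted p = 0.00146), and TTTATG, in 22.6% and 18.2% (adjusted p = 0.0199), also by the exact test. TTTATG was not called with any 1 replicate left out, with the strongest 50% of the IDR list, at a gene length of 100 kb, in windows of 50 bp on each side or with 1 peak per gene, and AACAATG was not called at 100 kb or with 1 peak per gene. Leaving out a replicate here means keeping only the IDR peaks found in each remaining replicate, as defined further on. The other 5 motifs were called under every alternative run for this comparison. The rule itself sets the 2 classes apart by distance to start sites. In the flanks of the long-intron peaks the shares were 20.2% for CGATA, 0.496% for TATCGATA, 0.372% for GGTCACAC and 7.94% for CAGCTG. They were 17.7% for AAAAAAAA, 5.71% for AACAATG and 28.4% for TTTATG. Whether the differences go beyond those between intron and promoter sequence was not tested.

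Against intronic IDR peaks of shorter genes 0 of 31 motifs differed (0%, Fisher exact test), with 2 at an unadjusted p under 0.05. The nearest to the threshold was GATAAG, the site of Serpent-type zinc finger factors, found in 8.19% of long-intron peaks and 12.1% of the others (adjusted p = 0.0775, Fisher exact test). Against the weaker pooled peaks of long-gene introns 1 of 31 differed (3.23%). It was TGGGAA, a Su(H) site of the Notch pathway, in 9.06% of long-intron peaks and 13.8% of the weaker ones (adjusted p = 0.00686, Fisher exact test). It was not called without replicate 3, with a gene length of 30 kb, with the strongest 50% of the IDR list, with 1 peak per gene, or against the stronger 50% of the weaker peaks.

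The strongest long-intron peaks ranked high in each replicate. Both the IDR filter and the choice of peaks found in every replicate select for this, so the ranks are given as description. The signal is the authors' own score for each peak. Its scale is unstated, so it is compared within a list only. The top long-intron peak lay in ush, the gene of a Friend of GATA zinc finger cofactor, with its summit at chr2L:481064 and a signal of 5714 in the IDR list. Its rank in replicates 1, 2 and 3 was 3, 1 and 3, with signals of 1741, 1537 and 2415 in those lists. The nearest start site, 1376 bp away, belongs to another gene, cbt.

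In shn, which encodes a zinc finger factor of Dpp signalling, a summit with a signal of 3434 ranked 20, 61 and 33 in the replicates. In Tlk, the gene of the Tousled-like kinase of chromatin assembly, the signal was 2854 and the ranks 85, 56 and 64. In psq, whose BTB-domain product binds GAGA sequences, the strongest of 3 such summits had a signal of 2470 and ranks of 87, 146 and 108. In CG1677 a summit with a signal of 2284 ranked 91, 169 and 174. That summit is nearest to the start site of brk, 6964 bp away. Across these 5 peaks no replicate gave a rank beyond 174.

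The others of the 20 strongest peaks found in every replicate were in Sdc (the proteoglycan Syndecan, signal 2131), sbb (the corepressor Brakeless, 1702 and 1189), jing (a zinc finger protein, 1590), Smr (the nuclear receptor corepressor Smrter, 1535), CG33158 (1451), beat-Ib (a Beaten path family protein, 1370), Hr4 (a nuclear receptor, 1241), pum (the translational repressor Pumilio, 1236), Msp300 (a nesprin of the nuclear envelope, 1177) and mam (the Notch coactivator Mastermind, 1176), besides second summits in shn (1295), CG1677 (1432) and psq (1473 and 1301). The lowest placing among the 20 was rank 751, at Msp300 in replicate 1. Of the 20 peaks, 12 lay in the first intron of a transcript of their host, 13 were nearest to a start site of the host, and 10 lay on 2R.

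As a class, long-intron peaks were weaker than promoter peaks and close to the peaks outside genes. Their signal had a median of 255.5 (quartiles 194.1 and 393.4, n = 806), against 257.1 outside genes (n = 1164), 278.9 in introns of shorter genes (n = 1937) and 332.0 at promoters (n = 3481). Of the long-intron peaks, 134 (16.6%) were among the 1897 strongest IDR peaks, against 184 of the peaks outside genes (15.8%) and 1138 promoter peaks (32.7%). The difference from promoters of -16.1 percentage points passed (adjusted p = 2.82e-20, Fisher exact test, adjusted over 7 share tests), and within the replicate lists it was -15.7 ± 2.35 points (SD, n = 3). Against introns of shorter genes the share was 16.6% and 20.3% (adjusted p = 0.0339, Fisher exact test), with -3.82 ± 0.261 points in the replicate lists. That smaller difference no longer passed with a start site window of 1000 bp (-3.0 points, adjusted p = 0.101, Fisher exact test) or a gene length of 100 kb (-3.64 points, adjusted p = 0.270). Peaks are not replicates, and neighbouring ones are not independent. The p-values treat them as independent and are likely too small. The replicate SD is the measure of experimental error, taken over lists that share many summits.

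**Figure D2:**
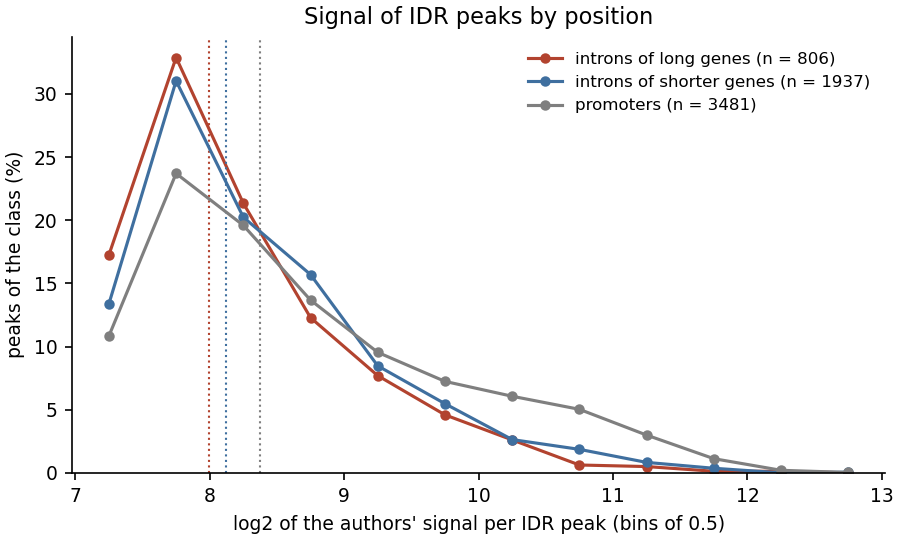
Share of the IDR peaks of each class, in percent, by the log2 of the authors' signal in bins of 0.5, with dotted lines at the class medians. The curve of the 806 long-intron peaks lies left of that of the 3481 promoter peaks, with medians of 255.5 and 332.0 before the log2.

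A peak counted as found in a replicate when 1 of that replicate's 7588 strongest peaks had its summit within 100 bp. All 3 replicates had 486 of the long-intron peaks (60.3%), while 224 were found in 2 replicates, 83 in 1 and 13 in no replicate. At any position of the replicate lists, 740 (91.8%) had a summit within 100 bp in all of them. By replicate, 76.3%, 86.0% and 84.5% of long-intron peaks were found in replicates 1, 2 and 3 (mean 82.3% ± 5.21, SD, n = 3), against 79.2%, 82.0% and 84.3% of those in introns of shorter genes and 84.9%, 79.4% and 89.1% of promoter peaks. Long-intron peaks were the least often found class of the 3 in replicate 1 and the most often found in replicate 2.

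Of the long-intron peaks, 60.3% were found in every replicate, against 60.5% of those in introns of shorter genes (difference -0.157 points, adjusted p = 0.966, Fisher exact test). Against promoter peaks, with 65.8%, the difference of -5.55 points passed (adjusted p = 0.00449, Fisher exact test). It rested on the replicates asked for. It was 1.00 points without replicate 1 (adjusted p = 0.593), -2.40 without replicate 3 (adjusted p = 0.220) and -10.1 without replicate 2, by the same exact test. A peak counted as found only among a replicate's strongest, so weak IDR peaks fail more often by construction. Set side by side at like strength, among long-intron peaks in the strongest 25% of the IDR list 100% were found in every replicate, and 92.0%, 66.2% and 9.45% in the next 3 such classes, against 97.7%, 85.8%, 51.4% and 5.77% of promoter peaks. In introns of shorter genes the shares were 97.5%, 91.4%, 56.3% and 7.64%, and outside genes 95.7%, 91.4%, 64.9% and 7.18%.

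**Figure D3:**
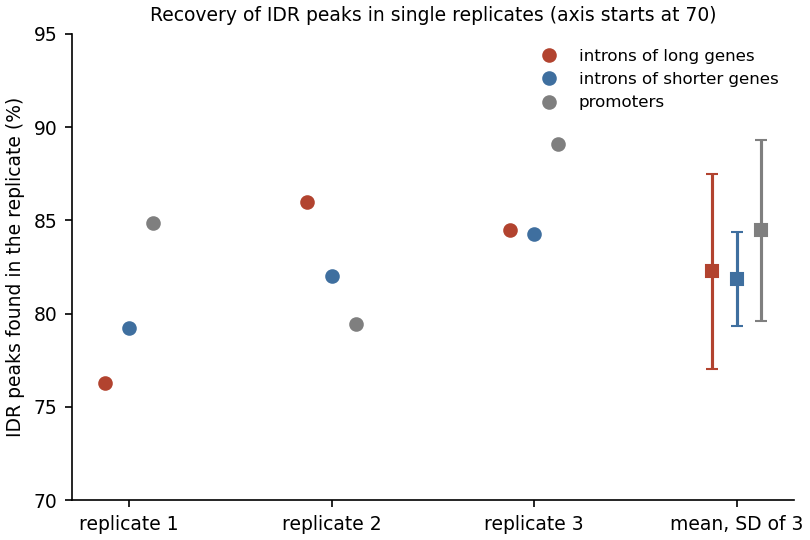
Percent of IDR peaks with a summit within 100 bp among the 7588 strongest of each replicate, for long-intron peaks, intronic peaks of shorter genes and promoter peaks, with the mean and SD of the 3 replicates at the right. The axis starts at 70%. The order of the classes is not the same in the 3 replicates, and the means of 82.3%, 81.8% and 84.5% differ by less than the SD of the long-intron peaks, 5.21 points.

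Long introns held a smaller share of the reproducible peaks than of the rest. Of the IDR peaks, 10.6% were long-intron peaks, against 3939 of the 20961 pooled peaks that overlap no IDR peak (18.8%). The difference was -8.17 points (adjusted p = 5.69e-64, Fisher exact test). With the 7588 strongest peaks of each replicate against the rest of its list it was -6.71, -6.59 and -7.16 points (mean -6.82 ± 0.303, SD, n = 3). Long introns made up 18.8% of the bases, so the weaker peaks lay there at the share of the sequence. Along the pooled list the share was 8.23% among the 3000 strongest peaks and 20.9% among the 3000 weakest, while the promoter share was 54.3% and 14.5%.

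Per length, there were 32.1 long-intron peaks per Mb of eligible sequence (25.1 Mb), against 29.0 per Mb outside genes (40.1 Mb) and 70.5 per Mb in introns of shorter genes (27.5 Mb). The ratio to introns of shorter genes was 0.455 (0.454 ± 0.0325 in the replicate lists, SD, n = 3). With repeats that RefSeq soft-masks left out, a setting chosen after the data had been seen, the ratio was 0.493. By arm the density was 46.8 per Mb on 2L, 38.0 on X, 32.3 on 2R, 27.8 on 3L and 23.1 on 3R, against 58.7, 95.7, 60.6, 76.1 and 70.4 per Mb in introns of shorter genes. Long genes of chromosome 4 had 0.0228 Mb of eligible sequence and no such peak. The density also differed with length. It was 48.4 per Mb in genes of 50 to 75 kb, 44.6 in those of 75 to 100 kb, 26.5 in those of 100 to 150 kb and 10.2 in the 22 genes above 150 kb. Part of the sequence of the longest genes gave no peak in the pooled list. The 30 long genes with no pooled peak in an eligible intron, Myo81F with 1959 kb of it among them, held 5.01 Mb, and 37.9% of that was soft-masked. Without them the density was 40.04 per Mb.

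Inside the genes, long-intron peaks kept towards start sites. Their median distance to the nearest protein-coding start site was 5562.5 bp (quartiles 2041.5 and 12633 bp), against 8408 bp for the weaker pooled peaks of the same introns. Within 2000 bp of a start site lay 24.6% of them and 12.6% of the weaker peaks, although both start beyond 500 bp. That start site belonged to the host gene for 604 (74.9%). Of the long-intron peaks, 437 (54.2%) lay in the first intron of a transcript of their host, against 1809 of the 3939 weaker peaks (45.9%). This difference of 8.29 points passed (adjusted p = 3.52e-05, Fisher exact test), and the replicate lists gave 4.42, 9.06 and 7.21 points (mean 6.90 ± 2.33, SD, n = 3). The exon-free stretch around a long-intron summit was a median 19079 bp long, and the next IDR peak was a median 2702 bp away, within 1000 bp for 204 peaks (25.3%).

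Within 1000 bp of a start site lay 86 of the long-intron peaks (10.7%). The cases nearest to each edge of the rule were as follows. The shortest gene with such a peak was ab (50403 bp) and the longest left out NetA (49917 bp), while the summit closest to a start site lay 509 bp away, in ush, and the closest one left out 496 bp away. The weakest long-intron peak, in hth, had a signal of 160.4, and the strongest pooled peak of a long intron that was not in the IDR list, in mamo, 159.4. Of the 806 summits, 57 lay in a noncoding RNA gene and 1 in an annotated transposable element.

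The peaks were gathered in a minority of the long genes. While 112 of the 307 long genes held none, 58 held 1, 63 held 5 or more, and 39 genes held 50% of the peaks. Of those with none, Ank2, rg, CG46244, br, CG46320, CG46458 and CG46467 had no eligible sequence assigned to them. Another gene of at least their length covers it, so they could hold no peak under the rule. By count, kirre came first, the gene of an adhesion protein of myoblast fusion, with 19 peaks over its 394149 bp, and 13, 20 and 14 of the 7588 strongest summits of replicates 1, 2 and 3. Next was shn with 18 peaks (17, 17 and 14 summits in the replicates), then CG1677 with 15 (14, 19 and 16) and ftz-f1, a nuclear receptor gene, with 15 (15, 13 and 15). The strongest CG1677 peaks lay in a noncoding RNA gene and were nearest to start sites of other genes. These were brk (740 bp for the closest of them), Dok (803 bp), CBP (1020 bp) and unc-119 (2445 bp). The replicates differed by up to 7 summits in kirre and by up to 3 in shn and by 2 in ftz-f1.

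These genes differed in how closely the peaks lay. The 18 summits of shn spanned 31.6 kb, with a median gap of 1232 bp, and made up the highest density of any long gene, 41.9 per 100 kb. The 15 of ftz-f1 spanned 39.0 kb with a median gap of 1583.5 bp and a density of 36.0 per 100 kb. In kirre the 19 spanned 352 kb with a median gap of 10975 bp and a density of 5.69 per 100 kb. The other genes with the most peaks were sbb (14), bun (a TSC-22 family factor, 14), CG32264 (13), ush (12), Tlk (12), and tai (the ecdysone receptor coactivator Taiman, 12), which had 10, 10 and 12 summits in the replicates. Tet, tied with the last of these at 12, falls just outside the 10. The signals of the strongest peak were 859.2 in kirre, 950.7 in ftz-f1, 593.6 in bun, 816.7 in CG32264 and 422.8 in tai, and those of the other 5 of these 10 genes lay between 1702 in sbb and 5714 in ush.

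**Figure D4:**
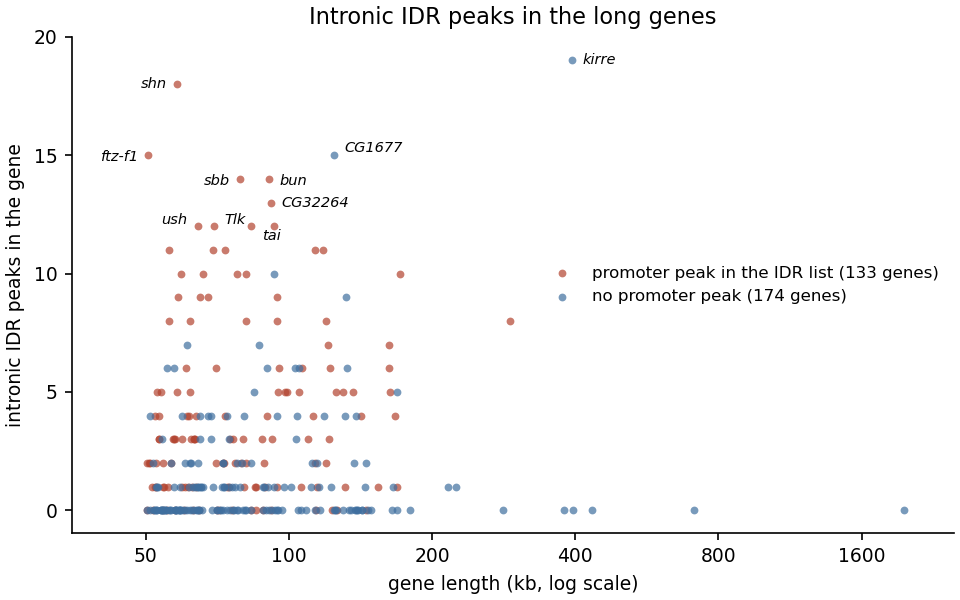
Number of long-intron peaks in each of the 307 long genes against gene length in kb on a log axis, coloured by whether the gene had an IDR peak within 500 bp of 1 of its start sites. The 10 genes with the most peaks are named. Most genes above 10 peaks have a promoter peak, kirre and CG1677 being exceptions, and many of the longest genes lie at 0.

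Host genes also tended to have a peak at their promoters. Of the 195 host genes, 114 (58.5%) had an IDR peak within 500 bp of a start site, against 19 of the 112 other long genes (17.0%). The difference of 41.5 points passed (adjusted p = 1.41e-12, Fisher exact test), and the replicate lists gave 41.2 ± 2.62 points (SD, n = 3). It was 38.9 points, with 58.5% of hosts and 16 of 82 others (19.5%), when only long genes with a pooled peak in an eligible intron were compared, a setting chosen after the data had been seen. The density was 63.7 per Mb in the 133 long genes with a promoter peak and 14.8 per Mb in the 174 without. Genes with a promoter peak had a median of 3 start sites and those without 2, and more start sites give more chances of a promoter peak, whose part was not tested. Among the exceptions, kirre and CG1677 had many intronic peaks and no peak at their own start sites. The strongest peaks of CG1677 were nearest to start sites of other genes. Conversely, Lar, tei and bbg had a promoter peak, over 100 kb of eligible intron and no intronic peak.

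Gene lists drawn up by function differed widely in these peaks. The ecdysone and nuclear receptor list had 8 long genes, of which 7 were hosts (87.5%), with 56 peaks and 125.8 per Mb, against 63.5% and 32.1 per Mb over all long genes. Besides ftz-f1 it held Eip75B (11 peaks), an early ecdysone response gene, with 9, 12 and 11 summits in the replicates, Hr4 (10 peaks, 11, 10 and 13 summits) and EcR, the ecdysone receptor gene (8 peaks, 9, 8 and 8 summits). The member without a peak, br, had no eligible sequence assigned to it, since a longer gene covers it.

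All 20 long genes of the developmental transcription factor list were hosts, with 116 peaks and 84.1 per Mb. The most peaks were in sbb, bun, ush and tai, named above. The signalling list had 11 hosts of 12 (91.7%) and 78.3 per Mb, led by shn, mam (11 peaks), the Frizzled receptor gene fz (8 peaks, signal up to 839.9) and ed, an adhesion gene of EGFR and Hippo signalling (5 peaks). The gene without a peak was rl, the MAP kinase gene, 52.1% of whose eligible sequence was soft-masked. All 6 long genes of the Hippo, Fat and planar polarity list were hosts, at 59.7 per Mb, among them the homeodomain cofactor gene hth (9 peaks, with 9, 12 and 7 summits in the replicates), fz, scrib (4) and pk (2). Both long genes of the chromatin list, jing (8) and lilli (4), were hosts.

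The axon guidance, RNA-binding and muscle lists lay between 26.8 and 52.3 per Mb. The axon guidance and cell recognition list had 18 hosts of 25 (72.0%) and 31.3 per Mb, led by kirre, the Wnt receptor gene fz2 (9), the teneurin gene Ten-a (8) and the receptor phosphatase gene Ptp10D (6), while Lar, Con, CadN2, dpr1, dpr8, klg and sns held none. The RNA-binding list had 10 of 14 (71.4%) and 26.8 per Mb, with pum (10), shep (6), mbl (5) and cpo (5), and none in Rbp6, Syp, bru1 or bru3. Rbp6 had 31 peaks of the pooled list in its introns, the most of any long gene without an IDR peak there. The muscle, cytoskeleton and matrix list had 9 of 13 (69.2%) and 52.3 per Mb. Its peaks were in the spectraplakin gene shot (10), cv-c (6), the dystrophin gene Dys (5) and the perlecan gene trol (3), among others. None lay in the titin-like genes sls and bt, and Ank2 had no eligible sequence.

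Ion channel and synaptic genes were the least often hosts of the 9 lists. Of its 16 long genes 5 (31.2%) were hosts, with 8 peaks and 7.81 per Mb. The phosphodiesterase gene dnc had 4 of them, with 6, 4 and 4 summits in the replicates. Shab, a potassium channel gene, had 1, with 1 summit in each replicate. Ca-alpha1T, a calcium channel gene, had 1, with 1, 3 and 1 summits, and nAChRalpha6, an acetylcholine receptor gene, had 1, with 1, 1 and 0. No peak lay in the sodium channel gene para, the calcium channel gene cac, the potassium channel genes Sh, SK and eag, the receptor genes 5-HT1A and Dop2R, or 4 other acetylcholine receptor genes. Only 2 of the 16 (12.5%) had a promoter peak, against 43.3% of all long genes, and 6.45% of their pooled intronic peaks were IDR peaks, against 16.4% over all long genes. The median number of peaks per gene was 0 in this list, 7 in the ecdysone list, 4 in the developmental factor list and 1 over all long genes. The lists were drawn up with earlier results of these data known, and these are descriptions with no test.

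**Figure D5:**
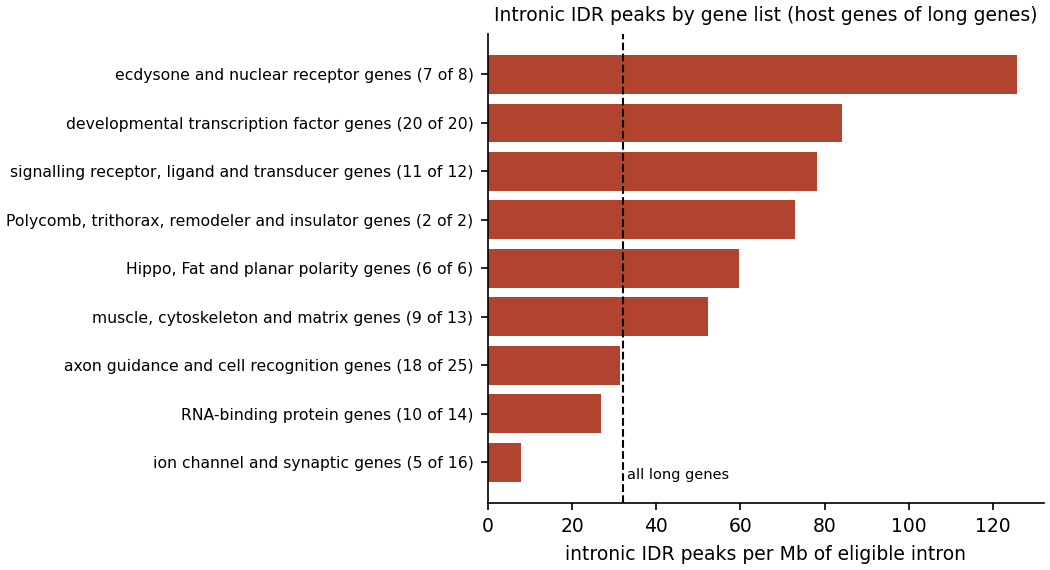
Long-intron peaks per Mb of eligible intron for the long genes of each of the 9 lists, with the number of host genes of the long genes in the list, and a dashed line at the 32.1 per Mb of all long genes. The ecdysone and nuclear receptor list is highest at 125.8 per Mb and the ion channel and synaptic list lowest at 7.81 per Mb.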

How the data were processed

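ChIP-seq peak lists of 3 replicates of GFP-tagged CG17385 embryos were used. Per the deposited text descriptions, each replicate list was made from that replicate's alignment and 1 further file common to all, and the IDR list from the replicate and pooled lists. Coordinates are dm6 per the labels. No source used here names the aligner, the peak caller or the IDR threshold. The signal score and the −log10 q-value of each peak were deposited by the authors, and only the score was used, to rank peaks within a list. Read depth is unknown. Genes came from Ensembl release 115, sequence from RefSeq. Sequences on arm 2R are not printed. The labels' input control line and ChIP entries conflict, and ChIP was assumed.

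Eligible sequence is that of a long gene beyond 500 bp of any start site and outside coding-gene exons, counted for the longest gene over it. Fisher exact tests (2-sided) compared shares, adjusted by Benjamini-Hochberg over 7 tests, and motifs (31) and words with 2-sided exact McNemar or Fisher tests adjusted over each family at a threshold of 0.05. Flanks lay 1000 bp away on a side drawn with a fixed seed. Replicate spread is the SD of the same contrast in the 3 replicate lists. The scripts were tested on windows with planted words. Alternatives changed the list length, matching distance, gene length, start site window, sequence window, flank, comparison peaks and replicates. To leave out a replicate, only the IDR peaks found in each remaining replicate were kept. The lists were not made anew, and the weaker pooled peaks stayed the same. For recovery, all IDR peaks were kept and only the remaining replicates were asked for. Python 3.11.15, numpy 2.4.6, scipy 1.17.1, pandas 2.3.3 and matplotlib 3.10.9 were used.

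The members, gene lists, motifs and tests were chosen with earlier results of these data known. Named by rule were the hosts of the 20 strongest peaks found in every replicate, the 10 genes with the most peaks, up to 4 genes of each list, and the 10 most enriched words that were 2-fold in each replicate. AGAAAAAT, the printed sequences with marked words, the word directions and the genes named as holding no peak were chosen after their values had been seen.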

Additional observations from a re-analysis of the deposited data

How the results depend on the processing

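The long-intron share of IDR peaks, the smaller share of strong peaks than at promoters, the promoter peaks of host genes and the first-intron share kept their direction and passed under every alternative that was run for them. Leaving out 1 replicate at a time gave -8.96 to -7.88, -20.8 to -17.8, 33.2 to 37.0 and 7.40 to 8.12 points for these. That setting kept only the IDR peaks found in each remaining replicate, from lists made with all 3 replicates. It therefore cannot show what lists made without a replicate would hold. Recovery in every replicate did not hold in all of its settings. Against introns of shorter genes, which had not passed, it was 1.16 points with the strongest 50% of the IDR list, 0.949 and 3.40 with gene lengths of 30 and 100 kb, 0.881 with a start site window of 1000 bp, 17.5 with the strongest peak of each gene, and -2.42 to 3.81 with 1 replicate left out. Against promoters it was 2.59 with the strongest 50%, -2.32 at 100 kb and 12.1 with the strongest peak of each gene. With 1 replicate left out it was -10.1 to 1.00. It still passed at 30 kb (-4.95 points, adjusted p = 0.00201, Fisher exact test). It also passed with the 1000 bp window (-4.76, adjusted p = 0.0201) and with summits matched within 250 bp (-8.48, adjusted p = 2.96e-06), by the same exact test. Taking the strongest peak of each gene selects strong peaks by construction. The share of strong peaks against shorter genes was -3.64 points at 100 kb and -3.0 with the 1000 bp window, and -5.15 to -4.14 with a replicate left out.

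The count of called words moved most. It was 4 with the strongest 50%, 55 at 30 kb, 0 at 100 kb with its 233 peaks, 5 in windows of 50 bp on each side, 20 with flanks at 3000 bp, 3 with 1 peak per gene, and 6 to 7 with a replicate left out. All 11 words were called at 30 kb, 7 of them with the farther flanks and 3 in those narrower windows, which miss words 65 bp from the summit. Called motifs against flanks were 1 at 30 kb, and against promoters 5 to 8 in all settings. Against shorter genes they were 2, 1 and 1 (30 kb, 100 kb, 1 peak per gene), and against weaker peaks 0, 0 and 0 (strongest 50%, 1 peak per gene, stronger weak peaks) and 0 to 2. The density ratio was 0.402 with the strongest 50%, 0.285 at 100 kb and 0.493 without masked bases. The causes were not tested. No paired analysis was possible because there is 1 group. Depth is unknown, so no limit can be set for peaks that were not called.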
